A study of Mus musculus with 6 samples.

Results

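The kainate and metabotropic glutamate receptors were followed through 9 genes, the kainate subunits Grik1, Grik2, Grik3, Grik4 and Grik5 and the metabotropic receptors Grm2, Grm3, Grm5 and Grm7. They were chosen by name, and 15 probe sets annotated to exactly 1 of these symbols were found among 45037 probe sets, which cover 18193 genes. Each gene is described at its probe set with the highest mean over all mice, and the other probe sets are given beside it. Hippocampal RNA of 6 mice, 1 Affymetrix array per mouse, was compared between 3 Dp(11)17/+ mice, heterozygous for a duplicated segment of chromosome 11 and named in the series title as a model for Potocki-Lupski syndrome, and 3 +/+ mice. All 6 were labelled as males of the C57BL/6-Tyr c-Brd background and as 11 to 14 weeks of age. Grik1 lies on chromosome 16, Grik2 on 10, Grik3 on 4, Grik4 and Grm2 on 9, Grik5 and Grm5 on 7, Grm3 on 5 and Grm7 on 6. None of the 9 genes is thus on chromosome 11, which holds the duplicated segment.

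Kainate receptors are ion channels opened by glutamate and assembled from subunits. The subunits of Grik1, Grik2 and Grik3 can form channels alone, whereas those of Grik4 and Grik5 bind kainate with high affinity and reach the membrane in combination with the others. In the hippocampus they act on both sides of the mossy fibre synapse, which links dentate granule cells to CA3 pyramidal cells, and on interneurons. Metabotropic glutamate receptors signal through G proteins. Group I, to which Grm5 belongs, couples to phospholipase C. Group II, with Grm2 and Grm3, and group III, with Grm7, couple to inhibitory G proteins and often restrain transmitter release.

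The arrays differed in ways that touch these genes. The array labelled Dp(11)17/+ replicate 1 had a log2 signal of 9.13 for Xist, the RNA of the inactive X chromosome of females, against 3.06 to 3.69 on the other 5 arrays. The Y-linked genes Eif2s3y and Kdm5d were at 2.48 and 2.47 there, against 5.41 to 6.01 and 4.70 to 5.06 on the others, so the label male is not borne out for that array. Of hippocampal markers, 6 for CA1 pyramidal cells averaged 6.97 to 8.26 in Dp(11)17/+ mice and 7.90 to 8.30 in +/+ mice. Means over 6 dentate granule markers were 5.14 to 7.71 and 6.52 to 7.02. In Dp(11)17/+ replicate 3, which had the lowest dentate mean, Tdo2 was at 2.78, Dsp at 3.33, Prox1 at 3.88 and Lct at 4.18. The median of that array was 3.76, and its dentate mean rested largely on Calb1 at 9.92 and Pdzd2 at 6.76. Markers of neighbouring regions were not even. The mean over 12 striatal markers was 7.16, 5.86 and 8.00 in Dp(11)17/+ replicates 1, 2 and 3, against 5.80, 6.43 and 5.84 in the +/+ mice. Genes of thalamus and habenula, 11 in all, averaged 7.36 in Dp(11)17/+ replicate 3, against 4.40 to 4.79 in the other 5 mice, and all 11 were highest in that mouse. Choroid plexus markers averaged 5.19 to 7.31 in Dp(11)17/+ mice and 4.71 to 8.22 in +/+ mice. Among all marker lists, the genotypes lay apart without overlap in 3, by small amounts. They did so in 8.29% of all genes taken singly, and no such share is given for means over lists. In the other lists the genotypes overlapped, namely CA1, dentate, CA3, striatum, thalamus and habenula, interneurons, astrocytes, oligodendrocytes, microglia and choroid plexus. The 3 lists apart were oligodendrocyte precursors (7.48 to 7.70 in Dp(11)17/+ mice, against 7.25 to 7.44 in +/+ mice), endothelial cells (5.94 to 6.12, against 5.81 to 5.82) and meninges (5.33 to 5.70, against 5.77 to 5.79). Their members were not uniform. Pdgfra, of the precursor list, was higher in +/+ replicate 2 (7.86) than in Dp(11)17/+ replicate 2 (7.73). In +/+ replicate 3, endothelial Cldn5 was highest (7.94) and meningeal Col1a2 lowest (6.91). The difference between 3' and 5' actin control probe sets, a sign of RNA quality, was 1.47 to 1.74 in Dp(11)17/+ mice and 1.45 to 1.63 in +/+ mice.

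At the brightest probe set of each gene, the signals of the 9 genes fell into separate levels in the hippocampus. Values are log2 signals after robust multi-array averaging (RMA), and a step of 1 is a doubling of signal. Probe sets of different genes bind with different strength, so the order is one of array signals and not of RNA amounts. Grm3 and Grm5 were highest, with means over the 6 mice of 8.66 and 8.64, at the 94.6th and 94.5th percentiles of all probe sets. Grik5 followed at 7.94, Grm7 at 7.80 and Grm2 at 7.04. Grik4 and Grik3 had means of 5.26 and 5.18, at the 68.4th and 67.6th percentiles. Grik2, at 3.91, and Grik1, at 3.79, lay near the middle of all probe sets, at the 52.4th and 50.5th percentiles.

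Neighbours within a level did not differ beyond their spread. The ranges over 6 mice overlapped between Grm3 (8.23 to 9.27) and Grm5 (8.10 to 9.05), and Grm3 was the higher in 3 of 6 mice. Grm5 and Grik5 (7.61 to 8.23) overlapped as well, although Grm5 was higher in 5 of 6 mice. Grik5 and Grm7 (7.54 to 7.96) changed places in 3 of 6 mice, as did Grik4 with Grik3 and Grik2 with Grik1. Gaps without overlap lay between Grm7 and Grm2 (6.57 to 7.43), between Grm2 and Grik4 (4.64 to 5.76), and between Grik3 (4.66 to 5.70) and Grik2 (3.66 to 4.10). Among kainate subunits, Grik5 thus had the highest signal in every mouse. The levels rest on the brightest probe set of each gene. Other Grm7 probe sets had means of 4.03 and 2.60, and with probe sets averaged Grm7 came after Grm2 and Grik4. No detection calls were used here, and whether Grik1 and Grik2 lay above the background of their probes was not tested.

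**Figure D1:**
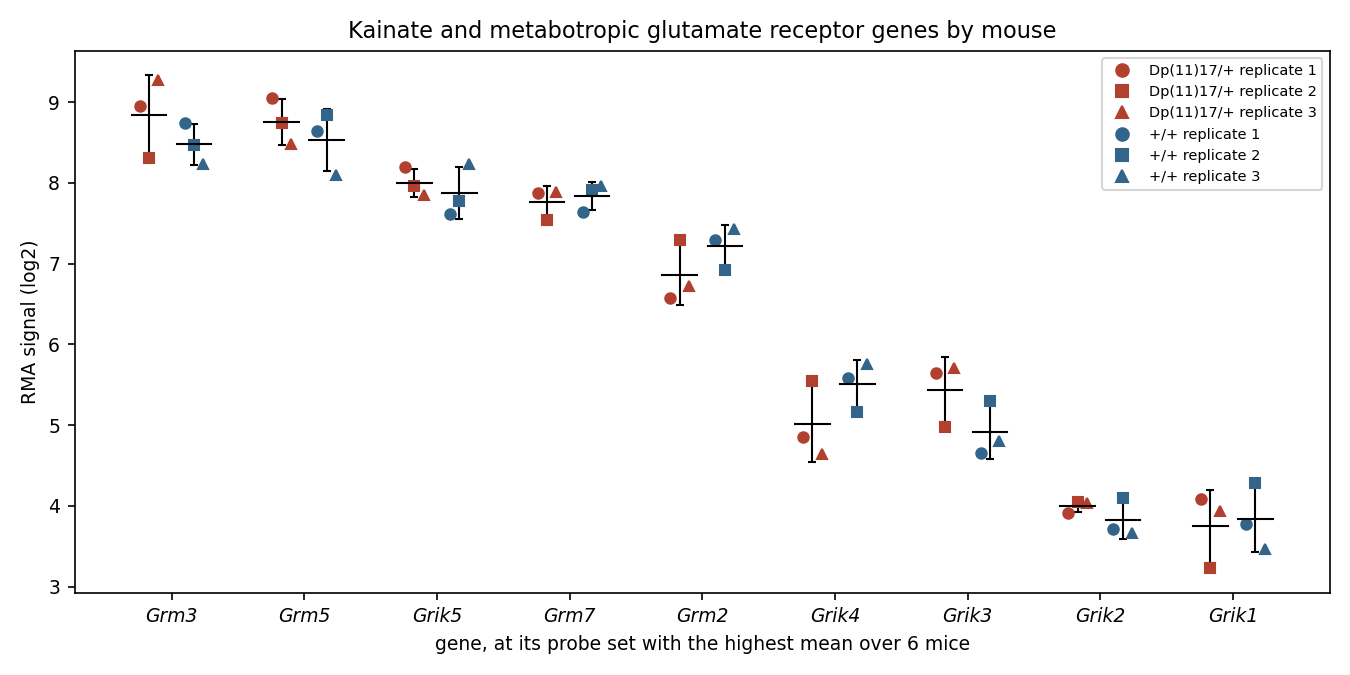
Log2 RMA signal (vertical axis) of the 9 receptor genes in each mouse, with Dp(11)17/+ mice in red on the left and +/+ mice in blue on the right of each gene; horizontal lines are group means and bars are SD (n = 3). Grm3 and Grm5 have the highest means, Grik1 and Grik2 the lowest, and the groups overlap in all 9 genes.

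The comparison of the genotypes asked whether hippocampal signals of these receptors differ in Dp(11)17/+ mice. No receptor gene passed. By limma with Benjamini-Hochberg adjustment over all 45037 probe sets, 0 of the 9 genes and 0 of their 15 probe sets were called at an adjusted p of 0.05, with adjusted p = 0.994 for each of the 15. The share called among all probe sets was 0%. At an unadjusted p under 0.05, limma gave 0 of 9 genes and 0 of 15 probe sets, against 3.17% of all genes and 2.82% of all probe sets, and the plain equal-variance statistic gave 0 of 9 as well. That count was 4 of 9 without Dp(11)17/+ replicate 2, where 6.14% of all probe sets had such a p, and 2 of 9 without +/+ replicate 2, where 2.59% had one. No share over genes is given for these fits. In 0 of the 9 genes and 0 of the 15 probe sets did the mice of each genotype lie apart without overlap, which was so for 8.29% of all genes and 8.01% of all probe sets. Of the 9 genes, 5 were higher in Dp(11)17/+ mice and 4 lower, with a median log2 difference of 0.13, against -0.02 over all genes. Of the 15 probe sets, 7 were higher and 8 lower, with a median of -0.05, against -0.01 over all probe sets. The median size of the difference, regardless of sign, was 0.23 in the 9 genes and 0.08 over all genes. The genes also spread widely between mice, with a median range over 6 mice of 0.95, against 0.37 over all genes. Over the 15 probe sets, the median size was 0.16 and the median range 0.58, against 0.08 and 0.36 over all probe sets. The wide spread was not particular to these receptors, as 34 partner genes described below had a median range of 0.73. The part of signal level in these ranges was not tested.

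Among the kainate subunits, Grik3 had the largest positive difference. This gene encodes GluK3, a channel-forming subunit of low glutamate sensitivity. At its brighter probe set, the log2 signals were 5.64, 4.97 and 5.70 in Dp(11)17/+ replicates 1, 2 and 3, against 4.66, 5.30 and 4.80 in the +/+ mice. Dp(11)17/+ replicates 1 and 3 were above every +/+ mouse, and replicate 2 lay below +/+ replicate 2. The log2 difference was 0.52 (SE 0.24), a 1.43-fold higher signal with a 95% confidence interval of 0.97 to 2.12-fold, which did not pass (unadjusted p = 0.067, adjusted p = 0.994, limma). With Dp(11)17/+ replicate 2 as the only Dp(11)17/+ mouse the difference was 0.05. Without replicate 2 it was 0.75, and without +/+ replicate 2 it was 0.71. The dimmer probe set gave -0.18 (SE 0.12), with signals of 3.14 to 3.42 in Dp(11)17/+ mice and 3.34 to 3.68 in +/+ mice.

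Grik4, which encodes the high-affinity subunit GluK4 and is known for its expression in CA3 pyramidal cells, had the largest negative difference. Its single probe set had log2 signals of 4.86, 5.55 and 4.64 in Dp(11)17/+ replicates 1, 2 and 3, against 5.59, 5.17 and 5.76 in the +/+ mice. The same pair of Dp(11)17/+ mice, replicates 1 and 3, lay below every +/+ mouse, while replicate 2 lay among them. The log2 difference was -0.49 (SE 0.25), or 0.71-fold with a 95% confidence interval of 0.47 to 1.08-fold, which did not pass (unadjusted p = 0.096, adjusted p = 0.994, limma). It was 0.046 with Dp(11)17/+ replicate 2 alone and -0.76 without that mouse. The mean over 6 other markers of CA3 pyramidal cells ran from 6.12 to 6.62 in Dp(11)17/+ mice and from 6.27 to 6.38 in +/+ mice, and its members did not move together. Iyd was lowest in Dp(11)17/+ replicates 3 and 1, at 3.74 and 3.92, as Grik4 was, whereas Coch was highest in those mice, at 7.12 and 6.09. Within each mouse, Grik3 minus Grik4 was 0.78, -0.58 and 1.06 in Dp(11)17/+ replicates 1, 2 and 3, against -0.93, 0.14 and -0.96 in +/+ mice. The sign was therefore not uniform within either genotype.

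Grik5, which encodes GluK5, the other high-affinity subunit and a partner of GluK2 in most brain kainate receptors, had log2 signals of 8.19, 7.97 and 7.84 in Dp(11)17/+ mice, against 7.61, 7.78 and 8.23 in +/+ mice. The highest value belonged to a +/+ mouse and the difference was 0.13 (SE 0.17), with a confidence interval of 0.82 to 1.45-fold. It was -0.0057 without +/+ replicate 1. Grik2, the subunit of postsynaptic mossy fibre receptors, had a narrow spread, with 3.91, 4.05 and 4.03 in Dp(11)17/+ mice and 3.72, 4.10 and 3.66 in +/+ mice. Its difference was 0.17 (SE 0.13), and its dimmer probe set gave -0.12 (SE 0.12). Grik1, a subunit known from hippocampal interneurons, had 4.08, 3.23 and 3.93 in Dp(11)17/+ mice, against 3.78, 4.28 and 3.47 in +/+ mice. Dp(11)17/+ replicate 2 was lowest and +/+ replicate 2 highest. The difference was -0.09 (SE 0.28), which turned to 0.16 without Dp(11)17/+ replicate 2 and to 0.13 without +/+ replicate 2. Its dimmer probe set gave 0.15 (SE 0.09). The mean over 10 interneuron markers was also lowest in Dp(11)17/+ replicate 2, at 7.79, where 4 of the 10 were lowest. That mean was highest in Dp(11)17/+ replicate 3, at 8.42, with +/+ replicate 2 at 8.36. The part of interneuron markers in the Grik1 difference was not tested.

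Grm2, a group II receptor of presynaptic terminals that is strong on mossy fibres, followed the order of Grik4 closely. Its log2 signals were 6.57, 7.29 and 6.73 in Dp(11)17/+ replicates 1, 2 and 3, against 7.29, 6.92 and 7.43 in the +/+ mice. Again Dp(11)17/+ replicates 1 and 3 lay below every +/+ mouse and replicate 2 did not. The same pair had the lowest marker means of dentate granule cells, 6.10 and 5.14 against 6.52 to 7.71 in the other 4 mice, and of CA1 pyramidal cells, 7.68 and 6.97 against 7.90 to 8.30. Not every member of these lists went this way. Of the dentate markers, Calb1 was highest in Dp(11)17/+ replicate 1, at 10.04, and Pdzd2 in Dp(11)17/+ replicate 3, at 6.76. Of the CA1 markers, Ccn3 was at 8.98 in Dp(11)17/+ replicate 1, against 7.92 to 9.03 in the +/+ mice. The part of these markers in the Grm2 difference was not tested. The difference was -0.35 (SE 0.21), or 0.78-fold with a confidence interval of 0.56 to 1.11-fold (unadjusted p = 0.14, adjusted p = 0.994, limma). With Dp(11)17/+ replicate 2 alone it was 0.075. Centred on their own means, Grik4 and Grm2 had the smallest root mean square difference of the 36 pairs of the 9 genes, 0.14 on the log2 scale, and Grik3 and Grik4 had the largest, 0.80. These genes are chosen here for display of their promoters, since their signals moved together (Grik4 and Grm2) or oppositely (Grik3) between mice.

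The 250 bases before the start site are given 5' to 3' on the strand of the gene, from RefSeq with build GRCm38.p6, at chr4:125490446-125490695 (plus strand) for Grik3, chr9:42944372-42944621 (minus strand) for Grik4 and chr9:106656110-106656359 (minus strand) for Grm2. Capitals mark the GC box GGGCGG or its reverse complement CCGCCC.
Grik3: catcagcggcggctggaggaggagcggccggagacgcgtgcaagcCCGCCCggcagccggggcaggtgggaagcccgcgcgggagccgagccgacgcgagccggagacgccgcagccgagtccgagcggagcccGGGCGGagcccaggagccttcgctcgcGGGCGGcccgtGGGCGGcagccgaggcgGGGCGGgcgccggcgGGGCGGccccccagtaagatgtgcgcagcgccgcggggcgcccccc
Grik4: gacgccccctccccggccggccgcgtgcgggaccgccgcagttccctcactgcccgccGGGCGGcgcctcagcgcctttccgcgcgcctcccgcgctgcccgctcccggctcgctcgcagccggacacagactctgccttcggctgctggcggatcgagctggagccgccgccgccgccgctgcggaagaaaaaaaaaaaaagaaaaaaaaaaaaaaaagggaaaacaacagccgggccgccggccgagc
Grm2: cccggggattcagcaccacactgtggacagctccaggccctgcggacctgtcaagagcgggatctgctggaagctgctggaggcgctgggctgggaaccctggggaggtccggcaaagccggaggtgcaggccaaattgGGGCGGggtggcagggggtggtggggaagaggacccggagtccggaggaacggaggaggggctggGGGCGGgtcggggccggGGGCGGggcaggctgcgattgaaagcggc
Grik3 held 6 GC boxes in this window, Grm2 held 3 and Grik4 held 1. A GC box was present in 32.7% of 32851 such windows in the table. CpG dinucleotides numbered 42 in Grik3, 36 in Grik4 and 16 in Grm2, against a median of 6 over all windows, and 99.3%, 97.8% and 76.5% of windows held no more than these. Neither the TATA box TATAAA nor the cAMP response element TGACGTCA, searched on both strands, was in these 3 windows, while 12.4% and 1.5% of all windows held them. No searched motifs overlapped. The table held windows for 7 of the 9 genes and none for Grik1 and Grm5. Among the windows not shown, those of Grik5, Grm3 and Grm7 also held a GC box, and that of Grik2 did not. These matches describe letters in the sequence, and no measurement of promoter activity was made.

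Grm3, the other group II receptor, which is found in astrocytes as well as neurons, ran the opposite way to Grm2. Its log2 signals were 8.95, 8.31 and 9.27 in Dp(11)17/+ replicates 1, 2 and 3, against 8.74, 8.47 and 8.23 in the +/+ mice. Dp(11)17/+ replicates 1 and 3 were above every +/+ mouse, and replicate 2 lay below +/+ replicates 1 and 2. The difference was 0.36 (SE 0.25), or 1.28-fold with a confidence interval of 0.86 to 1.93-fold (unadjusted p = 0.189, adjusted p = 0.994, limma). It was 0.15 without Dp(11)17/+ replicate 3, 0.63 without Dp(11)17/+ replicate 2, and -0.17 with replicate 2 alone. The mean over 7 astrocyte markers was nearly level over the mice, at 8.85 to 8.94 in Dp(11)17/+ mice and 8.82 to 8.85 in +/+ mice. Its members did not move together. Aldh1l1 was highest in Dp(11)17/+ replicates 3 and 1, at 7.43 and 7.30, as Grm3 was, whereas Gfap was lowest in those mice, at 8.32 and 9.37. The part of astrocyte markers in the Grm3 difference was not tested.

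Grm5, the group I receptor of pyramidal cell dendrites that binds Homer proteins, had log2 signals of 9.05, 8.74 and 8.48 in Dp(11)17/+ mice, against 8.65, 8.84 and 8.10 in +/+ mice at its brighter probe set. The highest mouse was Dp(11)17/+ replicate 1 and the lowest +/+ replicate 3. The difference was 0.23 (SE 0.22, 0.82 to 1.68-fold), and 0.015 without +/+ replicate 3. Its other probe set was nearly as bright and gave -0.07 (SE 0.14), with 7.83 to 8.26 in Dp(11)17/+ mice and 8.09 to 8.31 in +/+ mice. Grm7, the group III receptor of the active zone, varied least among the bright genes, with 7.88, 7.54 and 7.88 in Dp(11)17/+ mice and 7.64, 7.91 and 7.96 in +/+ mice. The difference was -0.07 (SE 0.13, 0.77 to 1.18-fold), and 0.044 without Dp(11)17/+ replicate 2. Its dim probe sets had means of 4.03 and 2.60 and gave 0.16 and -0.05.

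**Figure D2:**
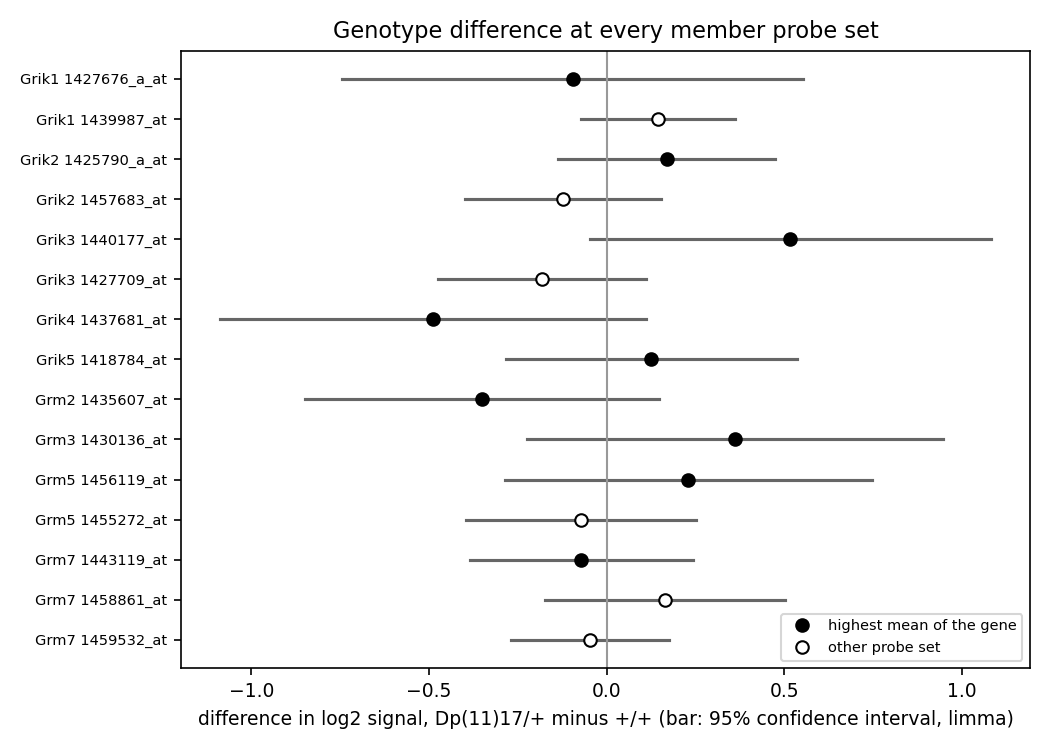
Difference in log2 RMA signal, Dp(11)17/+ minus +/+ (horizontal axis), for each of the 15 probe sets; filled points are the probe sets with the highest mean of each gene, open points the others, and bars 95% confidence intervals from limma. Every interval holds 0, from the lowest difference of -0.49 for Grik4 to the highest of 0.52 for Grik3.

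For Grik3, Grik4, Grm2 and Grm3, leaving out either of the Dp(11)17/+ arrays that stood apart made the difference smaller without turning its sign. These are the genes in which replicates 1 and 3 both lay beyond every +/+ mouse. Both arrays were farther from the +/+ mean than their group mean was, so the smaller difference follows from the values by arithmetic. Without replicate 1, whose Xist signal went against its label, the differences were 0.42 for Grik3, -0.41 for Grik4, -0.20 for Grm2 and 0.31 for Grm3. Without replicate 3, highest in striatal and thalamic markers, they were 0.39 for Grik3, -0.30 for Grik4, -0.28 for Grm2 and 0.15 for Grm3. Other genes did not follow this. Grm7 was at -0.13 without either, Grik1 at -0.26 without replicate 1 and -0.19 without replicate 3, and Grm5 at 0.082 without replicate 1 and 0.37 without replicate 3. In all 5 genes with more than 1 probe set, Grik1, Grik2, Grik3, Grm5 and Grm7, the probe sets disagreed in the sign of the difference. Grik4, Grik5, Grm2 and Grm3 rest on 1 probe set each.

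The plot of striatal markers shows how these values lay beside the regional makeup of each array. The order of the 6 mice by Grik3 was the same as their order by the mean of 12 striatal markers, with Dp(11)17/+ replicate 3 highest, then Dp(11)17/+ replicate 1, +/+ replicate 2, Dp(11)17/+ replicate 2, +/+ replicate 3 and +/+ replicate 1. For Grik4 and Grm2, the 3 mice with the highest striatal mean were the 3 with the lowest signal. Grm3 was highest in the same pair of Dp(11)17/+ mice, but +/+ replicate 1, which had the lowest striatal mean, came directly after them for Grm3. These 3 mice were also the ones with high choroid plexus markers, with means over 5 genes of 7.31, 7.10 and 8.22, against 4.71 to 5.19 in the other 3. Of the 12 striatal markers, which themselves make up the striatal mean, 11 were highest in Dp(11)17/+ replicate 3 and 8 lowest in +/+ replicate 1. Not all kept the order of that mean, as Foxp1 was at 8.17 in +/+ replicate 1, against 7.76 and 7.13 in +/+ replicates 2 and 3. The dopamine receptor gene Drd1, of the striatal list, was at 6.09, 4.18 and 6.84 in Dp(11)17/+ mice, against 3.96, 5.44 and 4.10 in +/+ mice. The part of the striatal and choroid plexus markers in the receptor differences was not tested. In tissue RNA, fewer cells of a type and less RNA per cell cannot be told apart.

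**Figure D3:**
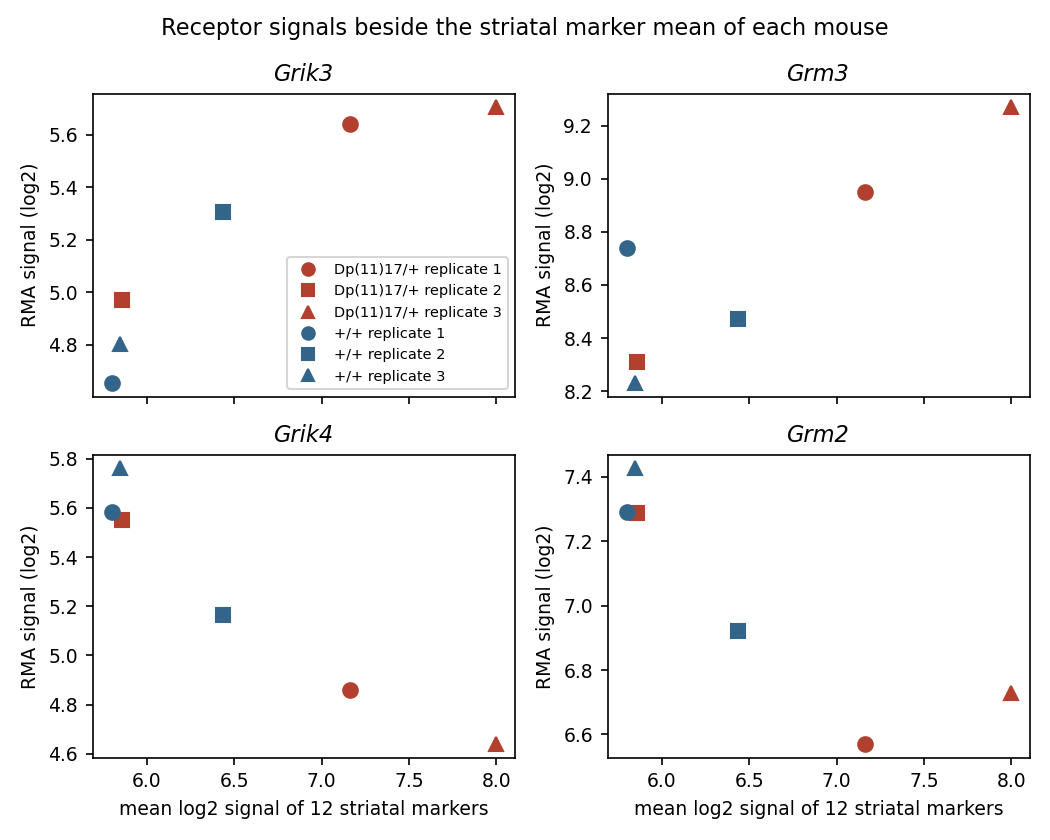
Log2 RMA signal of Grik3, Grm3, Grik4 and Grm2 (vertical axes) against the mean log2 signal of 12 striatal markers (horizontal axes), 1 point per mouse, Dp(11)17/+ in red and +/+ in blue. Dp(11)17/+ replicates 1 and 3, at striatal means of 7.16 and 8.00, have the highest Grik3 and Grm3 and the lowest Grik4 and Grm2, and Dp(11)17/+ replicate 2 lies with the +/+ mice. Grik3 is shown at its brighter probe set, and its dimmer probe set does not follow this.

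**Figure D4:**
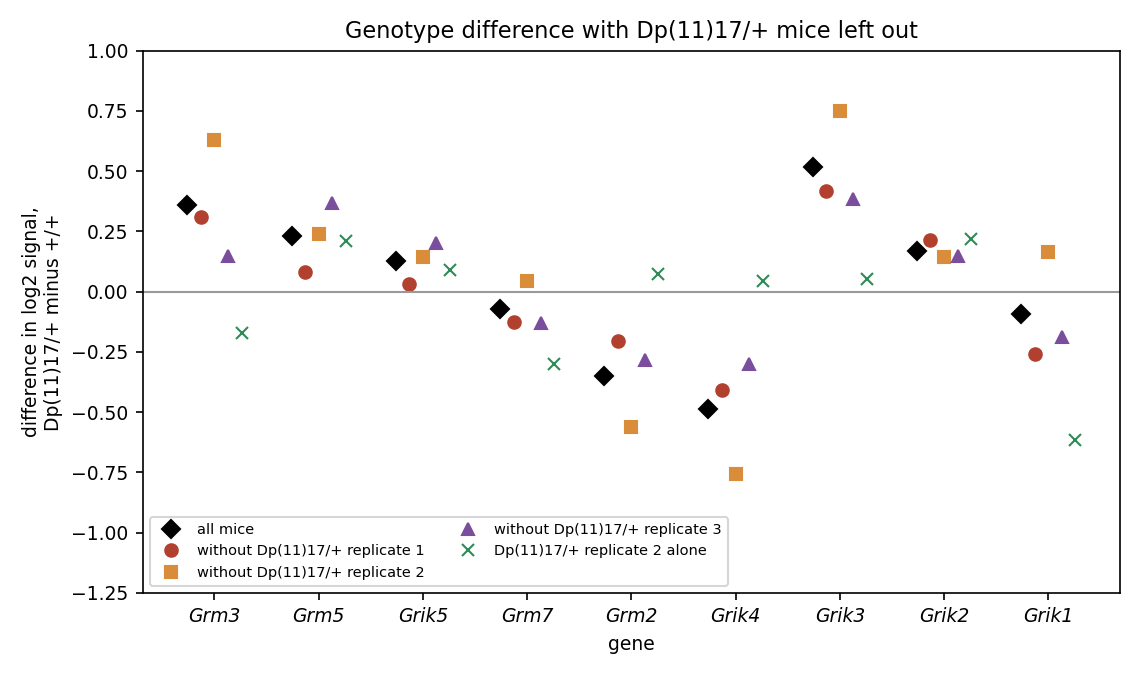
Difference in log2 RMA signal, Dp(11)17/+ minus +/+ (vertical axis), for the 9 genes with all mice, without each Dp(11)17/+ mouse, and with Dp(11)17/+ replicate 2 as the only Dp(11)17/+ mouse. With replicate 2 alone, Grik3 is at 0.05, Grik4 at 0.046, Grm2 at 0.075 and Grm3 at -0.17, while without replicate 2 they are at 0.75, -0.76, -0.56 and 0.63.

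Genes with the most similar profile were sought for the members whose mice spanned at least 1 on the log2 scale, which were Grik1, Grik3, Grik4 and Grm3. Likeness was the root mean square difference between mean-centred log2 signals over the 6 mice, among 7103 or 7104 genes with a mean of 6 or more. For Grik3 the closest were Lhfpl3 (0.092) and Tmem158 (0.12), against a median of 0.42 over all candidates. For Grik4 they were Trim2 (0.085) and Susd6 (0.094), with a median of 0.43. Those for Grm3 were Mtcl1 (0.067) and Numb (0.071), with a median of 0.39, and those for Grik1 were Samd4 (0.094) and Pknox2 (0.11), with a median of 0.37. With 6 mice, these are descriptions of likeness only.

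Of 37 genes listed as other receptors, partners, signalling genes and glutamate transporters, 34 were measured, and 0 of 34 were called by limma after adjustment over all probe sets or at an unadjusted p under 0.05, beside 0% of all probe sets and 3.17% of all genes. Without Dp(11)17/+ replicate 2, 8 of 34 had an unadjusted p under 0.05, beside 6.14% of all probe sets in that fit. Without Dp(11)17/+ replicate 3 it was 3 of 34, beside 1.90%. Both shares are over probe sets, and none over genes is given for these fits. Of the 34, 16 were higher in Dp(11)17/+ mice and 18 lower, with a median difference of -0.01. The genotypes lay apart without overlap in 1 of 34, Slc1a2, the main glial glutamate transporter, whose difference was 0.16 (SE 0.08), beside 8.29% of all genes.

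Among 8 kainate receptor partners, 3 were higher and 5 lower. C1ql2, a secreted protein of mossy fibres that recruits kainate receptors to their synapse, had log2 signals of 6.05, 8.29 and 4.28 in Dp(11)17/+ replicates 1, 2 and 3, against 7.77, 7.76 and 8.06 in +/+ mice. Its difference of -1.66 (SE 0.88, unadjusted p = 0.1, adjusted p = 0.994, limma) lay with the same pair of Dp(11)17/+ mice, in which the dentate granule marker means were 6.10 and 5.14, against 6.52 to 7.71 in the other 4 mice. Calb1 and Pdzd2 of that marker list were not lowest in this pair. The part of dentate content in the C1ql2 difference was not tested. Neto2, an auxiliary subunit of kainate receptors, differed by 0.28 (SE 0.17), and Neto1, its relative, by -0.20 (SE 0.22). Adarb1, the enzyme that edits the pore codon of Grik1 and Grik2 transcripts, differed by 0.21 (SE 0.32) and was highest in Dp(11)17/+ replicate 3, at 8.20, where Grik1 and Grik2 were not.

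Among 12 measured genes of group I signalling and scaffolding, 6 were higher and 6 lower. The smallest unadjusted p belonged to Homer3, a scaffold that links Grm5 to calcium stores, at -0.54 (SE 0.29), with 3.94 to 5.03 in Dp(11)17/+ mice and 4.74 to 5.08 in +/+ mice, and to Homer1, at 0.27 (SE 0.17). Among 7 genes of group II and III signalling, 2 were higher and 5 lower. Elfn1, a postsynaptic protein that binds Grm7 across the synapse, had a difference of -0.38 (SE 0.23), and Gnao1, which encodes an inhibitory G protein subunit, 0.17 (SE 0.14). Of the other metabotropic receptors, Grm4 differed by 0.12 (SE 0.32) and Grm8 by -0.14 (SE 0.26). Among 5 transporters, 4 were higher, with Slc1a3, the astrocytic transporter GLAST, at 0.31 (SE 0.15) and Slc1a2 at 0.16.

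**Figure D5:**
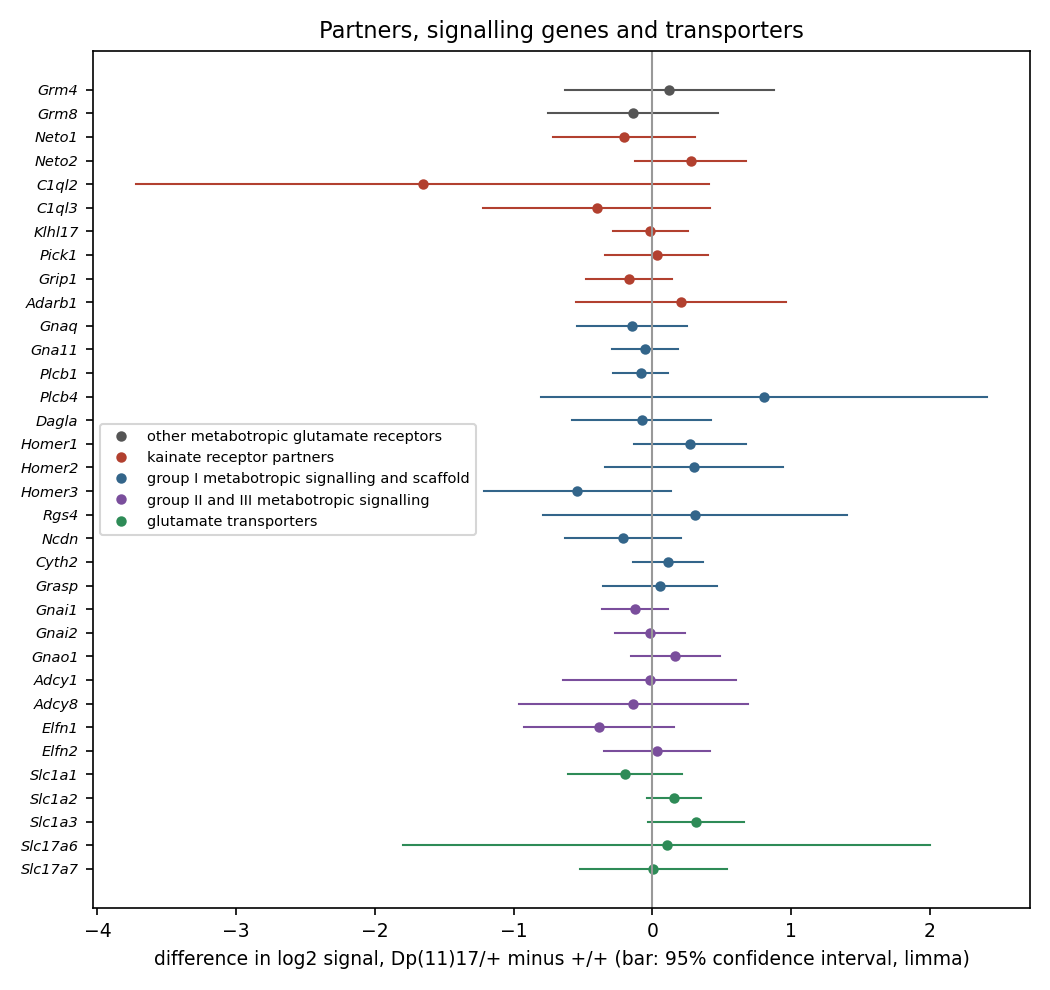
Difference in log2 RMA signal, Dp(11)17/+ minus +/+ (horizontal axis), for 34 partner, signalling and transporter genes grouped by list (colour), with 95% confidence intervals from limma. All 34 intervals hold 0, and the widest belong to C1ql2 at -1.66, Slc17a6 at 0.10 and Plcb4 at 0.81.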

How the data were processed

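Hippocampal RNA of 3 Dp(11)17/+ and 3 +/+ mice was labelled with biotin and hybridized to 1 array per mouse. The authors deposited log2 values, 1 per probe set, made with RMA per the submitters' processing notes. Its version and a genome build are not given in the sources used here. RMA sets the arrays to 1 common distribution, so only relative differences remain. The labels' extraction protocol names organs other than the hippocampus and the labelling protocol mentions pools, whereas each record names 1 individual.

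Values were used as deposited, with 64 control probe sets left out and no pseudocount. Array medians lay between 3.74 and 3.79, and the precision is limited by the number of arrays. Of 45037 probe sets, 34945 had 1 gene symbol from the platform annotation, 932 several and 9160 none. A gene table of GRCm38.p6 gave chromosomes. Genotypes were compared with limma 3.58.1 in R 4.3.3 (lmFit and eBayes, two-sided, no covariate, 7.11 degrees of freedom), with Benjamini-Hochberg adjustment over all 45037 probe sets and a threshold of 0.05. The fit was tested on simulated data. The rule named all probe sets of the 9 genes, in each partner list the genes past the threshold or else the 2 with the smallest unadjusted p, and the 2 most similar profiles of members spanning 1 or more. Neto1, Adarb1, Slc17a6, Plcb4 and the single cell type or region markers, such as Drd1, Iyd and Coch, were named outside this rule after their values were seen. The members and lists were chosen with earlier results of these data known. Alternatives were other scalings, filters, priors, array weights, a plain equal-variance statistic, averaged probe sets and mice left out.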

Additional observations from a re-analysis of the deposited data

How the results depend on the processing

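No receptor gene was called in any of the 15 alternative fits that gave a test, and no partner gene either, by limma or the plain equal-variance statistic. At an unadjusted p under 0.05, limma gave 4 of the 9 genes without Dp(11)17/+ replicate 2, 2 without +/+ replicate 2 and 1 with array weights, beside 6.14%, 2.59% and 3.84% of all probe sets in these fits, and 0 in the others. No share over genes is given for these fits. Leaving out 1 mouse at a time, the log2 difference ran from -0.28 to 0.16 for Grik1, from -0.17 to 0.044 for Grm7 and from -0.0057 to 0.30 for Grik5, so each of these changed sign. With Dp(11)17/+ replicate 2 as the only Dp(11)17/+ mouse, for which effect sizes alone are given, Grik4 turned to 0.046, Grm2 to 0.075 and Grm3 to -0.17. Averaging all probe sets of a gene turned Grik1 to 0.025 and Grm7 to 0.016. Over all 45037 probe sets, 1 was called with the intensity trend and robust prior and 1 with array weights, against 0 otherwise. Scaling, filters, priors and array weights changed no sign. In the order of signals, 6 of 9 genes kept their place with averaged probe sets, where Grm7 fell below Grm2 and Grik4. In +/+ mice alone 5 of 9 kept it, and Grm5 changed places with Grm3 and Grik1 with Grik2. The causes were not tested. Filters on the mean at 6 and 4 left 5 and 7 of the 9 genes. Signals near the middle of all probe sets, those of Grik1 and Grik2, limit what their differences can show.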

Other observations

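A further probe set is annotated to both Grm2 and Gm28111 and so belongs to no single receptor gene. Its log2 signals were 3.06 to 3.15 in Dp(11)17/+ mice and 3.12 to 3.43 in +/+ mice, a difference of -0.13 (SE 0.10).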
